A study of Mus musculus with 232 samples.

Results

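Immature-Pyr is 1 of the 24 cell clusters that the authors assigned to cells of the mouse dentate gyrus, the hippocampal field that makes granule neurons. The name is read here as immature pyramidal neurons. The cluster was chosen by its label alone and holds 4520 of the 24185 cells, or 18.7%. Of these, 1454 cells came from E16.5, 2338 from P0, 675 from P5 and 51 from P23, with 1 cell each at P18 and P132 and none at P19 and P120. The series profiled microdissected tissue, dissociated with papain, in droplets of the 10X Chromium system, and counted unique molecular identifiers (UMIs), which stand for single captured RNA molecules. E16.5, P0 and P5 were CD-1 mice whose sex the deposited table gives as unknown. The CD-1 mice of P18 and of P23 were all male, and the C57Bl/6 mice of P19 all female. P120 and P132 were hGFAP-GFP mice of both sexes, whose green fluorescent protein is driven by the human GFAP promoter, and cells of such mice were sorted for it. E16.5 is 1 library, P0 and P5 are 2 libraries each and P23 is 1 library. The deposited table speaks of pooled animals and does not tie them to libraries, so the difference between 2 libraries of an age may be technical only.

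Pyramidal neurons are the glutamatergic projection neurons of the hippocampal fields CA1 to CA3 and of the subiculum, which border the dentate gyrus. They are born before birth from progenitors that pass through an intermediate stage marked by Eomes, migrate along radial glia under the Reelin signal, grow axons along guidance cues, and then build excitatory synapses. NEUROD6 is a basic helix-loop-helix transcription factor of such neurons, and NR3C2 is the mineralocorticoid receptor, a steroid receptor that the mature hippocampus is known for.

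The share of Immature-Pyr cells shrank with age. They made up 63.6% of all cells at E16.5 (95% exact interval 61.6 to 65.6), 50.4% and 47.4% in the P0 libraries, and 15.98% and 14.5% in the P5 libraries. The intervals of the 3 ages did not overlap, but they cover counting error only and not the spread between animals. The change of the share with age was not tested. At P23 the share was 1.89% (1.41 to 2.48). Among neuronal clusters alone it was, in the same order, 79.3%, 59.1%, 23.1% and 3.14%. The count of 0 at P19 leaves a 95% exact upper limit of 0.177% and that at P120 a limit of 0.270%, in intervals that cover counting error only. Among neuronal clusters alone these limits were 0.253% and 1.69%, the latter from 217 cells.

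**Figure D1:**
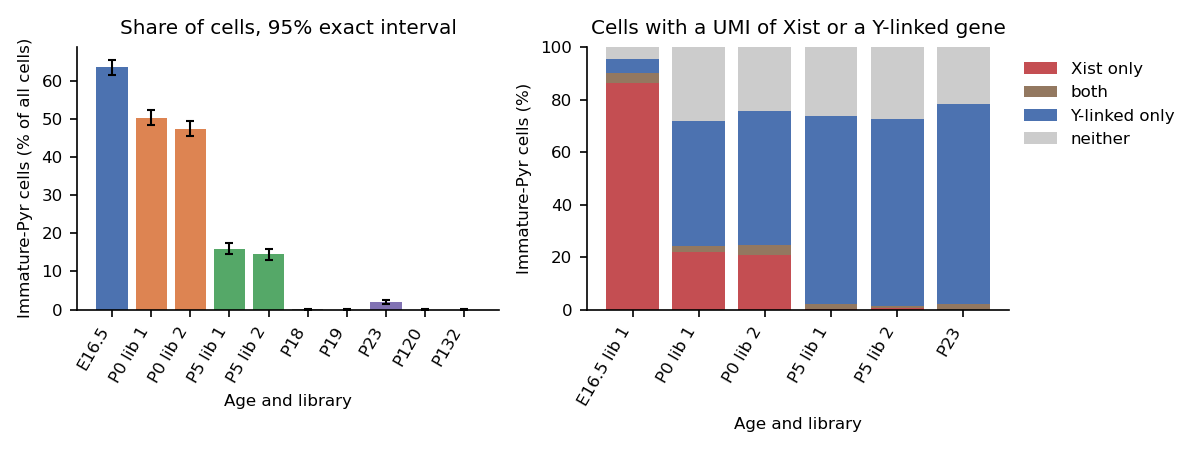
The left panel plots Immature-Pyr cells as a percent of all cells in each perinatal library and at each later age, with 95% exact intervals as bars. The right panel splits the Immature-Pyr cells of each library by whether they held a UMI of Xist, of a Y-linked gene, of both or of neither; the share with Xist alone falls from 86.4% at E16.5 to 0.444% at P5.

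Depth and the sex of the animals moved with age. Median UMIs per Immature-Pyr cell were 6112.5 at E16.5, 6412.5 at P0, 10036 at P5 and 10153 at P23, and the largest cell of the whole table has 19989 UMIs. The smallest Immature-Pyr cell had 4254 UMIs at E16.5 and between 2339 and 3062 in the P0 and P5 libraries. The sums over the cells of these 4 ages held 10228589, 17910780, 7024397 and 470136 UMIs. A UMI of Xist, the RNA that silences an X chromosome in females, without a Y-linked UMI was found in 86.4% of the cells at E16.5, 21.4% at P0, 0.444% at P5 and none at P23. Y-linked UMIs without Xist were found in 5.30%, 49.2%, 71.4% and 76.5%. Sex and age therefore cannot be told apart in the whole sums, and counts over cells with a Y-linked UMI and no Xist UMI stand beside the main gene groups below. There were 77 such cells at E16.5, 1150 at P0 and 482 at P5. Any 2 of the 11 libraries shared between 2 and 20 cell barcodes, and at most 3 of them were Immature-Pyr cells in both.

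Of the 4 genes given as marks of the cluster, Neurod6 alone was highest in Immature-Pyr at every age. CPM, used below, stands for UMIs per 1000000 UMIs of the summed cells. Neurod6 stood at 1492 CPM at E16.5, 1069.9 at P0, 714 at P5 and 1304 at P23, which was 3.85, 4.16, 4.43 and 2.34 times the highest other cluster of 20 or more cells. Nr3c2 had 9.78, 19.7 and 47.1 CPM at the 3 perinatal ages, against 9.57, 12.5 and 60.6 in Immature-GC, the young granule cells, which were higher at P5. Elavl2, an RNA-binding protein of neurons, had 252, 288 and 315 CPM and was lower than in at least 3 other clusters at each age, with 467, 652 and 659 in Immature-GABA, the young inhibitory neurons. Mndal, an interferon-inducible gene, had 2.15, 3.24 and 9.68 CPM. It lay below Immature-GC at P0, where that cluster had 13.9. Among these 4 genes the label thus rests on Neurod6.

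Other genes set it apart as well. By the smallest ratio over the 3 perinatal ages, Rprml stood above Neurod6, and the others named here stood below it. These comparisons describe the clusters and carry no test, because the clusters were made from the same genes. Rprml, a relative of the cell-cycle gene Reprimo, was at least 7.01 times the highest other cluster at each perinatal age, with 54.6 CPM at E16.5, 227 and 191 in the P0 libraries and 348 and 313 in the P5 libraries. Cck, which encodes the neuropeptide cholecystokinin, had 236, then 993 and 958, then 1440.2 and 1570.5 CPM, and stood 2.92 to 3.42 times above Immature-GABA, the next cluster. Crym, a thyroid hormone binding protein, had 553, then 828 and 754, then 1008 and 903 CPM, and its ratio to Immature-GC was 2.18 at E16.5 and 6.50 at P5. Other genes named by the same rule were Hivep2, Arpp21, Lmo7, Runx1t1 and Syt4, each at least 1.77 times the next cluster at all 3 ages. At P23, Rprml, Cck, Crym, Hivep2, Arpp21, Lmo7 and Runx1t1 were all higher in another cluster, and Neurod6 and Syt4 remained highest in Immature-Pyr. For Rprml, Cck, Hivep2 and Arpp21 the highest was CA3-Pyr, the mature CA3 pyramidal neurons, which had at most 1 cell at a perinatal age. Within Immature-Pyr, Hivep2 and Arpp21 went from 150 and 205 CPM at P5 to 262 and 379, while Rprml, Cck, Crym, Lmo7 and Runx1t1 were lower. Hivep2 in CA3-Pyr, at 268 CPM, was close to its level in Immature-Pyr.

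Marks of GABA neurons, cycling cells, Cajal-Retzius cells, microglia, endothelium and meninges were low, while those of blood and of glia were higher. The 10 genes of GABA neurons, Gad1, Gad2, Slc32a1 and Dlx genes among them, summed to 14.9, 14.01 and 14.4 CPM. The 15 cycling genes summed to 39.3, 22.9 and 33.2 CPM, and the 7 genes of Cajal-Retzius cells to 63.4, 41.5 and 35.6 CPM. The 7 microglial and the 8 endothelial and meningeal genes stayed under 15 CPM in sum at each perinatal age. Hemoglobin genes moved with library: the 6 blood genes summed to 559 CPM at E16.5, 38.3 and 369.7 in the P0 libraries and 161 and 131.6 in the P5 libraries. The 12 genes of astrocytes and radial glia summed to 460.3, 551 and 1255 CPM, of which Mt3, a metallothionein also made by neurons, gave 85.1, 143 and 663 CPM. In the age fit described next, 4 of the 11 tested rose (Slc1a2, Apoe, Gfap and Mt3) and Vim fell. The share that rose was 36.4%, beside 12.5% of all genes. The part of these RNAs in the results was not tested.

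The next comparison follows the same cells over E16.5, P0 and P5. A slope below is a log2 change per age step, fitted with edgeR's quasi-likelihood test to 1 sum of UMIs per age, with its standard error and a Benjamini-Hochberg adjusted p over 12309 genes. Of these, 1539 rose and 981 fell at an adjusted p under 0.05, a background of 12.5% called rising and 7.97% called falling, and the median slope of all genes was -0.02. With 3 sums and 1 residual degree of freedom, the spread was borrowed from the other genes. That spread is the departure from a straight line over the ages and does not measure the difference between animals. A gene with a curved course can therefore miss the threshold. The scaling matters for small slopes, because the median log2 ratio in plain CPM was 0.12 from E16.5 to P0 and 0.13 from P0 to P5. DESeq2 called 1001 of 12309 genes rising and 468 falling. In the cells with a Y-linked and no Xist UMI, 597 of 11547 rose and 299 fell. With 1 sum per library, 2465 of 12627 rose and 2191 fell. These are the backgrounds for the counts of gene lists given for those fits below. The cells with a Y-linked and no Xist UMI are part of the whole sums, so their signs are not independent of the calls. In them, 2416 of the 2428 called genes that could be tested had the same sign, and 855 passed again.

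Several of the steepest rises were in genes of the excitatory synapse. Nrgn encodes neurogranin, a postsynaptic protein that holds calmodulin, and had 8.02 CPM at E16.5, 256 and 188 CPM in the P0 libraries and 930.2 and 882 CPM in the P5 libraries. No library of an age overlapped with those of another age, which the rule for naming these genes required. The slope was 3.20 ± 0.28 (SE; adjusted p 6.60e-09), with a P5 level 113 times that at E16.5. Camk2a, the alpha subunit of calcium/calmodulin-dependent kinase II, had 7.33 CPM, then 52.1 and 57.4, then 262 and 244, with a slope of 2.41 ± 0.19 (adjusted p 1.24e-09). Slc17a7 encodes the vesicular glutamate transporter VGLUT1, and its level was 21.997 CPM, then 57.04 and 47.1, then 286 and 280.0 (slope 1.73 ± 0.17, adjusted p 5.17e-08). Its larger ratio lay between P0 and P5, whereas Nrgn had its larger ratio between E16.5 and P0. Snhg11, a long noncoding RNA of neurons, went from 3.42 CPM to 114 and 92.9 and then 680.0 and 553, a slope of 3.47 ± 0.26 (adjusted p 4.68e-10). Fxyd7, a regulator of the sodium pump, had 18.97 CPM, then 117 and 91.2, then 806 and 828 (slope 2.60 ± 0.17, adjusted p 7.29e-11).

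The genes named for the steepest rises, and those for the steepest falls, were chosen to be in age order in all 5 libraries. Their order is therefore no support for them. Over all called genes, 1462 of the 1539 rising and 749 of the 981 falling were in this order. Nptxr, the neuronal pentraxin receptor at excitatory synapses, went from 27.3 CPM at E16.5 to 393 and 359 at P5 (slope 1.77), and Cadm2, a synaptic adhesion molecule, from 55.5 to 619 and 691 (slope 1.66). Gda, a guanine deaminase, had 3.32, 44.7 and 133 CPM at the 3 ages, and Nbl1, a secreted BMP antagonist, 7.14, 46.6 and 174. Chchd10, a mitochondrial protein, had 13.9, 35.8 and 219 CPM and Ramp1, a co-receptor for calcitonin gene-related peptide, 9.87, 32.1 and 113. The largest adjusted p of the 12 genes named for rises was 1.32e-07, of Ramp1.

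The sequences before the start sites of Nrgn, the steepest riser with a known synaptic role, and of Cck, the neuropeptide that marks the cluster, are shown because both hold the E-box CAGATG, a motif that NEUROD factors are known to bind. They are the 250 bases before the RefSeq start (GRCm38.p6), 5′ to 3′ on the gene's strand, with the motif or its reverse complement CATCTG in capitals. Nrgn lies at chr9:37552746-37552995 on the minus strand and Cck at chr9:121495695-121495944 on the minus strand.
Nrgn: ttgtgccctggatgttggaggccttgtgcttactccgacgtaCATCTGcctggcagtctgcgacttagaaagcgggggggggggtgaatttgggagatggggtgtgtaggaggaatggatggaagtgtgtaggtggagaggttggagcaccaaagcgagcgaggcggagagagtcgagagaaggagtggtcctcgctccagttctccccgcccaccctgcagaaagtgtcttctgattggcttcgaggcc
Cck: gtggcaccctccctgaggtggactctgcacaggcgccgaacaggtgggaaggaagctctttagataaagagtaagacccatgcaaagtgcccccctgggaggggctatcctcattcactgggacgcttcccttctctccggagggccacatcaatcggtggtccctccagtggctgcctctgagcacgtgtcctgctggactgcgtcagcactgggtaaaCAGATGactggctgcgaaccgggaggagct
The match begins 208 bases before the start in Nrgn and 30 bases before it in Cck. Over all named genes with a sequence, 4 of 30 held the motif on either strand (Nrgn, Cck, Ier5 and Sema3c), and 14.5% of 27025 genes did, so the named genes were not richer in it by count. A match is letters in a window and says nothing of binding.

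**Figure D2:**
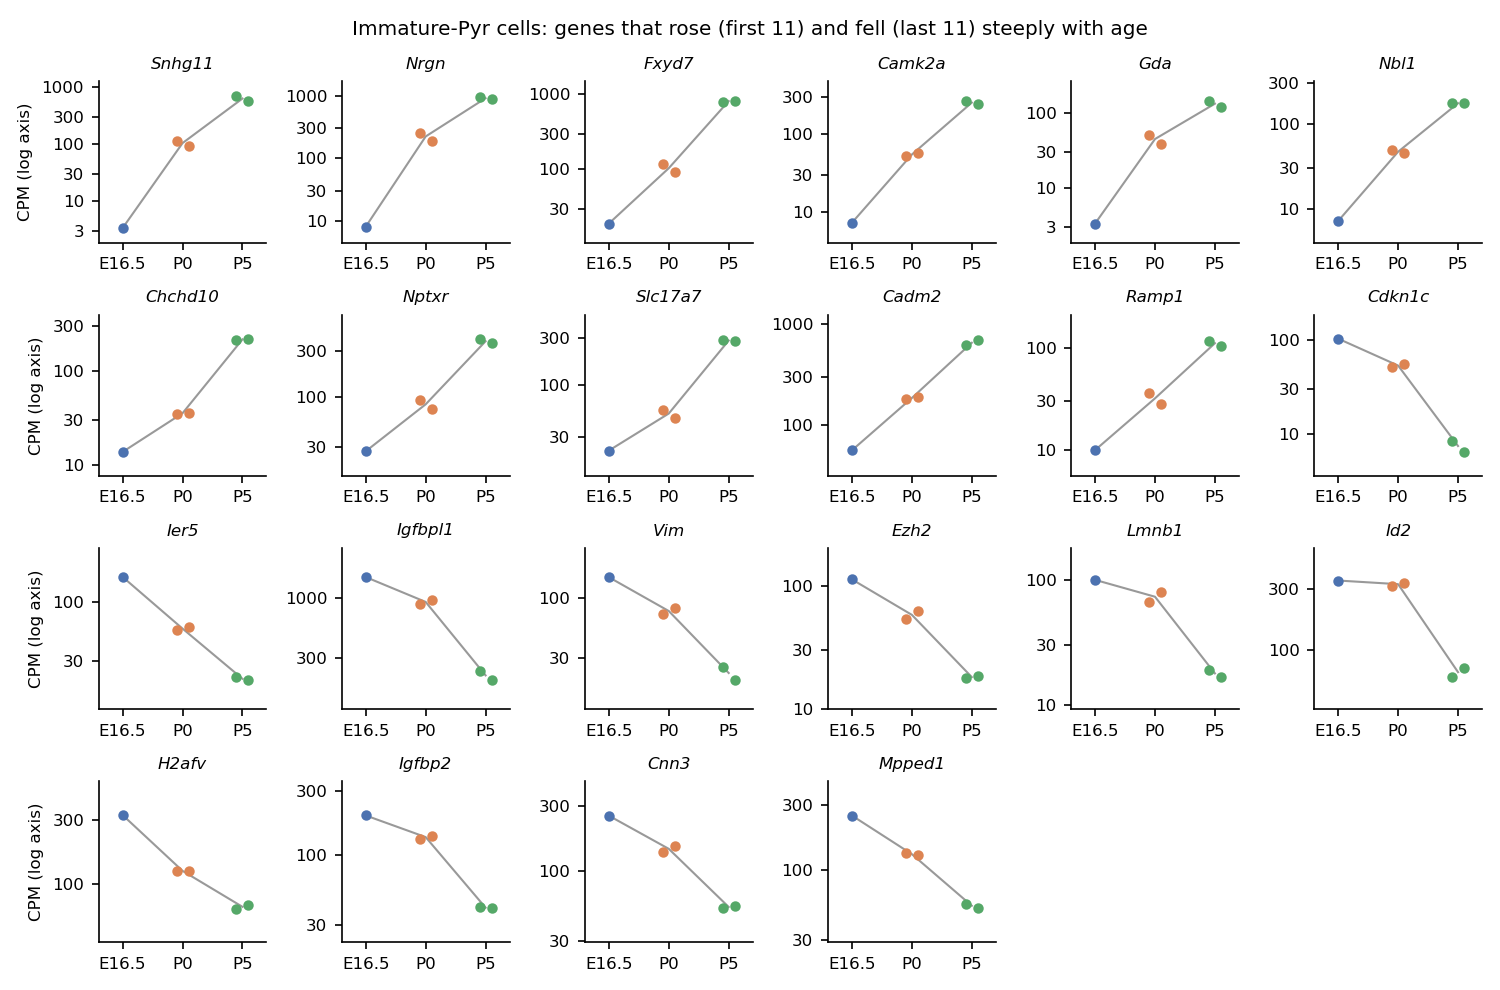
Each panel shows 1 gene's level in CPM on a log axis over E16.5, P0 and P5, with 1 point per library and a grey line through the sums of each age. The first 11 genes rise and the last 11 fall from age to age, as in Nrgn, from 8.02 CPM to 930.2 and 882. The libraries of different ages do not overlap, because the genes were chosen by that order.

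The genes that fell most included genes of newborn neurons and progenitors. Igfbpl1, an insulin-like growth factor binding protein relative seen in newly born neurons, had 1533 CPM at E16.5, 896 and 958 at P0 and 228 and 191 at P5, a slope of -1.55 ± 0.18 (adjusted p 5.71e-07). Cdkn1c, an inhibitor of cyclin-dependent kinases, had 103 CPM, then 51.8 and 54.99, then 8.37 and 6.39 (slope -1.94 ± 0.23, adjusted p 6.72e-07). Vim, the intermediate filament vimentin of radial glia, fell from 152 CPM to 71.98 and 81.5 and then 24.8 and 19.2 (adjusted p 8.94e-07). The libraries of different ages did not overlap for any of the 3 genes, by the rule that named them. Ezh2, which writes the repressive mark H3K27me3, had 113, 58.0 and 18.1 CPM at the 3 ages, and H2afv, a variant histone, 329, 125 and 66.8. Lmnb1, the nuclear lamin B1, had 99.8, 73.1 and 17.8 CPM and Cnn3, an actin-binding calponin, 255, 145 and 53.7.

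Id2, an inhibitor of basic helix-loop-helix factors, stayed near its level until birth and then dropped, with 349 CPM at E16.5, 318 and 335 at P0 and 61.4 and 72.04 at P5 (slope -1.31 ± 0.23, adjusted p 1.71e-04). With DESeq2 Id2 did not pass the threshold. Ier5, an immediate early gene, had 165.4, 58.0 and 20.9 CPM, Igfbp2, an insulin-like growth factor binding protein, 198, 137 and 40.7, and Mpped1, a metallophosphoesterase with restricted cortical expression, 252, 130.1 and 53.8. Xist had the steepest fall, from 1680 CPM to 420.1 and 380.0 and then 2.23 and 1.45, beside the shares of cells with Xist given above.

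Most tested genes of synaptic vesicle release rose. Of 27 genes for synaptic vesicle release, 26 were tested, 21 rose and none fell, with a median slope of 0.69 beside -0.02 for all genes. All 21 were in age order in every library. In the cells with a Y-linked and no Xist UMI 16 of 26 rose, and with DESeq2 19 of 26. Syp, the vesicle protein synaptophysin, had 31.4 CPM, then 64.2 and 52.3, then 232 and 209.7 (slope 1.29 ± 0.17, adjusted p 2.37e-06). Syn2, the vesicle-tethering synapsin II, had 55.1, 136 and 405 CPM, Rims1, a scaffold of the active zone, 8.51, 20.3 and 63.2, and Sv2b, a vesicle glycoprotein, 7.43, 13.8 and 77.0. Snap25, part of the fusion complex, had 183, 244 and 583 CPM with a slope of 0.72 ± 0.15. The 5 genes that did not pass were Syt4, Syt5, Unc13a, Rab3a and Rab3c. Syt4, a synaptotagmin of dense-core vesicles, had 548, 721 and 609.6 CPM with no order over the ages.

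On the receiving side, 16 of 23 tested genes of the postsynaptic density and its kinases rose and none fell (median slope 0.55). In the cells with a Y-linked and no Xist UMI 8 of 23 rose. Camk4, a nuclear calmodulin kinase, had 39.5 CPM, then 118 and 126, then 413 and 422 (slope 1.58 ± 0.16, adjusted p 6.63e-08). Camk2n1, an inhibitor of CaM kinase II, had 29.2, 65.2 and 201 CPM and Ppp3ca, a catalytic subunit of calcineurin, 373, 709.5 and 1279.7. Dlg4, the scaffold PSD-95, had 78.8, 76.6 and 129 CPM and a slope of 0.23 ± 0.16 (adjusted p 0.329), so a change was not detected.

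Of 19 tested glutamate receptor genes 11 rose and 1 fell. In the cells with a Y-linked and no Xist UMI 9 of 17 rose, and with DESeq2 8 of 19. Among NMDA receptor subunits, Grin1, the obligatory subunit, had 11.2, 30.8 and 85.6 CPM (slope 1.34 ± 0.17, adjusted p 2.39e-06). Grin2a, known for its late onset, had 12.2, 55.1 and 112 CPM and Grin2b, the early subunit, 272, 418 and 667, with slopes of 1.45 ± 0.20 and 0.52 ± 0.15. Both rose, and the difference between them was not tested. Grin3a had 1.37 CPM at E16.5 and already 34.3 and 29.9 at P0, with 35.2 and 32.0 at P5. Of the AMPA receptor subunits, Gria1 had 63.7, 109 and 235 CPM (slope 0.82 ± 0.16) and Gria2, which blocks calcium entry, 539, 555 and 894 (adjusted p 0.247). Grm5, a metabotropic receptor, had 60.7, 170.5 and 407 CPM (slope 1.25 ± 0.16, adjusted p 2.08e-06). Grik3, a kainate receptor subunit, was the 1 that fell, from 9.78 to 4.13 CPM, and no glutamate receptor gene fell in the Y-linked subset, with DESeq2, with age in days, without cells of very many UMIs or without P5 library 2.

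Chloride transporters set whether GABA excites or inhibits a young neuron. Slc12a5, the chloride exporter KCC2, had 7.23 CPM, then 19.6 and 18.3, then 78.7 and 75.5 (slope 1.60 ± 0.18, adjusted p 2.98e-07). Slc12a2, the importer NKCC1, had 15.7 CPM, then 10.5 and 9.37, then 18.4 and 14.8 (slope -0.09 ± 0.19, adjusted p 0.787). Only the exporter passed the test, and the difference between both slopes was not tested. Of 17 tested genes of GABA receptors and chloride transport 9 rose and none fell, with 4 of 16 rising in the Y-linked subset. Gabra5, an alpha subunit of extrasynaptic receptors, had 38.4, 153 and 184 CPM and Gabbr2, a subunit of the GABA-B receptor, 28.6, 59.96 and 175. Gabra2, an early alpha subunit, had 369, 441 and 536 CPM and did not pass the test (adjusted p 0.532).

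Of 28 tested voltage-gated channel genes 17 rose and none fell, and all 17 were in order in the 5 libraries. Scn8a, the sodium channel of the axon initial segment, had 19.4, 36.4 and 109.8 CPM (slope 1.13 ± 0.17) and Scn2a1, the early axonal sodium channel, 55.8, 101 and 247 (slope 0.95 ± 0.16). Kcnd2, the channel of the A-type potassium current, had 12.7, 50.8 and 82.4 CPM, Kcnq5, a subunit of the M-current, 3.13, 8.82 and 27.3, and Hcn2, a pacemaker channel, 2.74, 6.20 and 22.4. Scn3a, an embryonic sodium channel, had 64.8, 81.9 and 110.5 CPM and did not pass (adjusted p 0.267). In the cells with a Y-linked and no Xist UMI 12 of 28 rose, and with DESeq2 14 of 28.

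**Figure D3:**
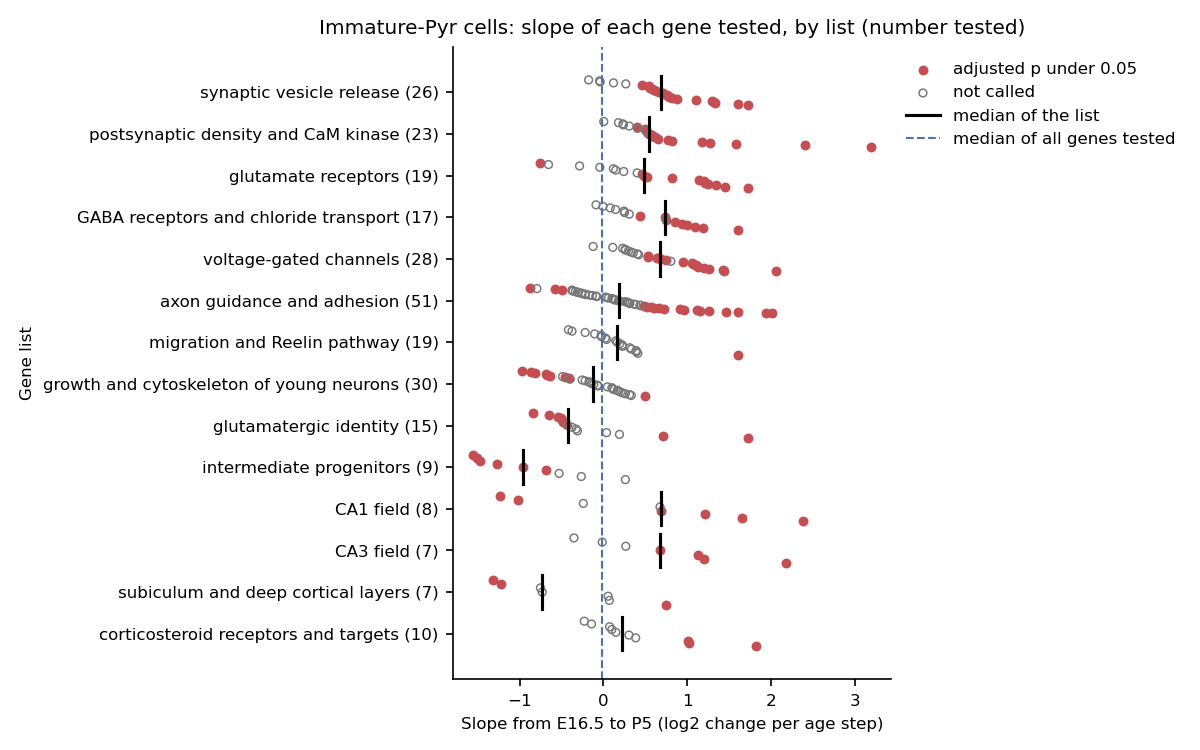
Each point is 1 gene's slope in log2 change per age step, filled where its adjusted p is under 0.05, grouped by gene list with the number of genes tested in brackets. Black bars are list medians and the dashed line is the median of all 12309 genes; the synaptic, receptor and channel lists lie to the right of it and the intermediate progenitor list to the left, with a median of -0.96.

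Of 30 genes for growth and the cytoskeleton of young neurons, 8 fell and 1 rose, with a median slope of -0.13. In the Y-linked subset 5 fell and 1 rose, with DESeq2 likewise 5 and 1, and with 1 sum per library 10 fell and 6 rose. In the last of these fits the share that rose was near the background of 2465 of 12627 genes. Sox11, a transcription factor of newborn neurons, had 2616 CPM, then 1554 and 1726, then 781 and 841 (slope -0.97 ± 0.14, adjusted p 1.15e-05). Its relative Sox4 had 721, 722 and 257 CPM. Tuba1a, the tubulin of growing neurites, peaked at P0 with 8972 CPM at E16.5, 15363 and 14439 in the P0 libraries and 3466 and 3347 in the P5 libraries, and Tubb2b did likewise with 3839.7, 5839 and 2312 CPM. Tuba1a was called as falling, although its course was not straight, and Tubb2b did not pass (adjusted p 0.0713). Dpysl2, which promotes axon growth, was the gene that rose, from 644 to 1519 CPM. Dcx, the microtubule protein doublecortin of migrating neurons, had 403, 424 and 353 CPM, and Gap43, the growth cone protein, 1318, 2059 and 1967. Neither passed the test.

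Of 9 tested genes of intermediate progenitors 6 fell and none rose. Neurog2, a proneural factor, had 32.3 CPM, then 10.98 and 13.3, then 5.58 and 3.78 (slope -1.51 ± 0.19, adjusted p 1.98e-06). Insm1, a zinc finger protein of neuronal progenitors, had 72.7, 35.4 and 10.8 CPM and Hes6 166, 125 and 76.4. Eomes itself was low, with 8.21, 1.73 and 2.99 CPM. In the Y-linked subset 3 of 8 tested fell.

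The identity genes of glutamatergic neurons also declined in part, with 7 of 15 falling and 2 rising (median slope -0.43). Neurod6 fell from 1492 CPM to 1016 and 1122 and then 685 and 744 (slope -0.65 ± 0.14, adjusted p 0.00122). Bcl11b, a zinc finger factor of CA and deep-layer projection neurons, had 266, 191 and 98.8 CPM (slope -0.84 ± 0.16, adjusted p 4.44e-04), and Nfix, a nuclear factor I gene, 1107, 1061 and 649. Zbtb20, a zinc finger factor of the hippocampal primordium, had 1708, 2525 and 2639 CPM and did not pass (adjusted p 0.359). In the Y-linked subset 2 of 15 fell and 1 rose.

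Of 51 tested genes of axon guidance and adhesion 15 rose and 3 fell, with a median slope of 0.18. The share that fell was below the background of all genes. In the Y-linked subset 10 rose and 1 fell, and with 1 sum per library 20 rose and 8 fell. In the latter fit the share that fell was not above the background of 2191 of 12627 genes. Robo2, a receptor for the repellent Slit proteins, had 4.89 CPM, then 22.97 and 23.6, then 81.8 and 94.4 (slope 1.95 ± 0.19, adjusted p 2.45e-08), and its ligand Slit2 14.7, 31.1 and 85.6. Cntn1, a contactin, had 37.5, 89.6 and 409.6 CPM (slope 1.61 ± 0.17). Unc5c, a netrin receptor, had 1.56, 7.70 and 31.6 CPM. The 3 called as falling were Plxna2, a semaphorin receptor, with 153, 105 and 81.9 CPM, Efnb2, an ephrin, with 42.7, 30.7 and 14.8, and Ntm, neurotrimin, with 87.2, 91.5 and 51.4. Nrp1, a semaphorin co-receptor, had 855, 757 and 637 CPM and did not pass the test. Of 19 tested migration and Reelin pathway genes, 1 rose. That was Cdk5r2, an activator of the kinase CDK5, with 9.68, 27.2 and 105 CPM, while the Reelin adaptor Dab1 had 139, 129 and 92.4 (adjusted p 0.0703).

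Nr3c2, the mineralocorticoid receptor gene, rose. It had 9.78 CPM, then 19.4 and 20.1, then 50.8 and 43.3 (slope 1.02 ± 0.18, adjusted p 1.16e-04), from 100 UMIs at E16.5. Nr3c1, the glucocorticoid receptor, was low at 2.44, 6.20 and 12.2 CPM (slope 1.02 ± 0.25, adjusted p 0.0035). Klf9, a transcription factor induced by corticosteroids and thyroid hormone, had 4.01 CPM, then 14.4 and 14.9, then 61.4 and 56.9 (slope 1.83 ± 0.19, adjusted p 7.16e-08). The other 7 of the 10 genes on the list, Fkbp5, Sgk1 and Tsc22d3 among them, did not pass. In the Y-linked subset Klf9 rose again (adjusted p 9.41e-04), while Nr3c2 (adjusted p 0.0859) and Nr3c1 (adjusted p 0.0846) did not pass.

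Genes used as marks of single hippocampal fields moved both ways. Of 8 genes used for CA1, 4 rose and 2 fell. In the Y-linked subset 1 rose and 1 fell. Fibcd1 had 0.684, 4.13 and 22.9 CPM and Wfs1 0.978, 4.24 and 12.5, while Mpped1, with the values above, fell. Of 7 tested genes used for CA3, 4 rose: Grik4, a kainate receptor subunit, with 9.19, 26.3 and 58.5 CPM at the 3 ages, Cpne4, a copine, with 29.4, 56.1 and 167, Pvrl3, the adhesion protein nectin-3, with 55.1, 85.7 and 166, and Coch, with 0.880, 3.13 and 19.1. On the list for the subiculum and deep cortical layers 7 genes were tested, of which Etv1 rose and Nts and Fezf2 fell (median slope -0.73). In the Y-linked subset 2 of 6 fell and none rose. Etv1 rose to 57.8 and 43.3 CPM at P5. Fezf2, a determinant of deep-layer projection neurons, fell from 284 CPM to 166 and 155 and 69.2 and 54.0 (slope -1.22 ± 0.17, adjusted p 5.47e-06). Calb2, which encodes calretinin of mossy cells among others, rose from 62.4 to 105 and 119 and 218 and 209 CPM (slope 0.77 ± 0.16). Prox1, the granule cell determinant, had 13.1, 7.70 and 38.4 CPM, against 550.2, 597 and 765 in Immature-GC. After every cell was thinned to 1500 UMIs, cells with a UMI of the subiculum list were 39.1%, 29.3% and 26.8% at the 3 ages, against 9.09%, 6.47% and 5.66% in Immature-GABA. In the cells without one, 795 of 8601 genes tested rose and 487 fell, against 913 and 519 of 9762 in all thinned cells. Of the 1790 called genes that could be tested there, 1787 had the same sign and 1101 passed again. These signs are not independent of the calls, because the cells are part of the whole sums.

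Not all changes ran in 1 direction. Taking genes at 50 CPM or more at either age and a ratio of 2 or more, with no test, 99 of 3251 genes (3.05%) were higher and 43 (1.32%) lower at P0 than at E16.5. From P0 to P5, 295 of 3611 (8.17%) were higher and 107 (2.96%) lower. Past this ratio in both steps were 41 genes going up and 2 going down. The 5 genes that went up past it and then down, chosen by that course, included Nts, Mt1, Mt2 and Tshz2. Nts, which encodes the peptide neurotensin, had 106 CPM at E16.5, 252 and 195 in the P0 libraries and 17.0 and 18.6 in the P5 libraries. Mt1, a metallothionein, had 22.1, then 145 and 147, then 61.1 and 65.7 CPM. Tshz2, a zinc finger factor, had 6.55, 51.7 and 15.2 CPM. No gene went down and then up past this ratio.

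To see which of these courses differed from other young neurons, the slope of Immature-Pyr was set against the mean slope of Neuroblast, Immature-GC and Immature-GABA, with age as a block because the classes of an age came from the same libraries. Of 11860 genes, 53 (0.447%) had a more positive and 118 (0.995%) a more negative slope in Immature-Pyr at an adjusted p under 0.05, and the median difference was -0.07. At E16.5 the comparison rests on 37 Immature-GC and 22 Immature-GABA cells. Without the block the counts were 7 and 9, and DESeq2 gave 11 and 25.

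Id2 had the largest difference among the 12 named genes. It fell in Immature-Pyr, as described, while Neuroblast had 253, 475 and 405 CPM, Immature-GC 76.6, 231 and 236 and Immature-GABA 132.3, 340.2 and 601 at E16.5, P0 and P5. The difference in slope was -2.04 ± 0.15 (SE; adjusted p 1.09e-16). Xpr1, a phosphate exporter, had 277 CPM, then 144 and 146, then 74.5 and 67.4 in Immature-Pyr, against 211, 166 and 228 in Immature-GC (difference -1.28 ± 0.16, adjusted p 8.78e-08). Ptprz1, a receptor phosphatase of radial glia and immature neurons, had 105, 50.3 and 41.7 CPM in Immature-Pyr and 54.5, 68.6 and 122 in Immature-GABA (difference -1.48 ± 0.18). Cnih3, an AMPA receptor auxiliary protein, had 121, 98.5 and 38.7 against 54.2, 93.6 and 98.6 CPM in Neuroblast (difference -1.27 ± 0.18). Xpr1, Ptprz1 and Cnih3 fell by their own slopes in Immature-Pyr, and the class named beside each had more at P5 than at E16.5. Beside most genes here and below only 1 other class is shown, while each difference is to the mean of all the other classes. Nts, with the P0 peak given above, differed by -1.95 ± 0.47 (adjusted p 0.0139), but the other classes held at most 4.18 CPM. Against Neuroblast alone its difference turned to 0.15, and it did not pass without P0 library 2 or P5 library 2.

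Sema3c, a secreted guidance cue, did not pass the test of its own slope in Immature-Pyr (adjusted p 0.356), with 166, 241 and 136 CPM, but went from 60.7 to 437 CPM in Neuroblast (difference -1.27 ± 0.21, adjusted p 3.68e-05). The 6 more positive genes were led by Snhg11, whose slope difference of 1.28 ± 0.25 (adjusted p 0.00125) rests on classes with few or no UMIs at E16.5: Neuroblast had 0, 8.46 and 11.8 CPM and Immature-GC 0, 9.10 and 45.1, while Immature-GABA, with 125, 749 and 1479, stood above Immature-Pyr at each age. Atp2c1, a calcium and manganese pump of the Golgi, had 81.6, 126 and 300.1 CPM in Immature-Pyr against 196, 132.2 and 102 in Immature-GC (difference 1.02 ± 0.14, adjusted p 1.02e-06). Eif1b, a translation initiation factor, had 253, 515 and 857 CPM against 317, 293 and 283 in Neuroblast (difference 0.88 ± 0.12, adjusted p 2.84e-07). Cpe, the carboxypeptidase that matures neuropeptides, had 245, 466 and 698 against 498, 372 and 263 CPM in Immature-GC (difference 0.86 ± 0.12, adjusted p 5.81e-07). Mgat4c, a glycosyltransferase, had 39.8, 53.4 and 123 CPM against 31.1, 11.96 and 6.26 in Immature-GABA (difference 1.23 ± 0.28, adjusted p 0.00557). The 31.1 CPM comes from 22 cells with 128461 UMIs in all. Without Immature-GABA, or against Neuroblast alone, Mgat4c did not pass. Nptxr had 27.3, 83.6 and 376 CPM against 33.5, 50.3 and 129 in Immature-GC (difference 0.82 ± 0.21, adjusted p 0.0241). Without P0 library 2 Snhg11 and Nptxr did not pass, and without P5 library 1 Nptxr did not.

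**Figure D4:**
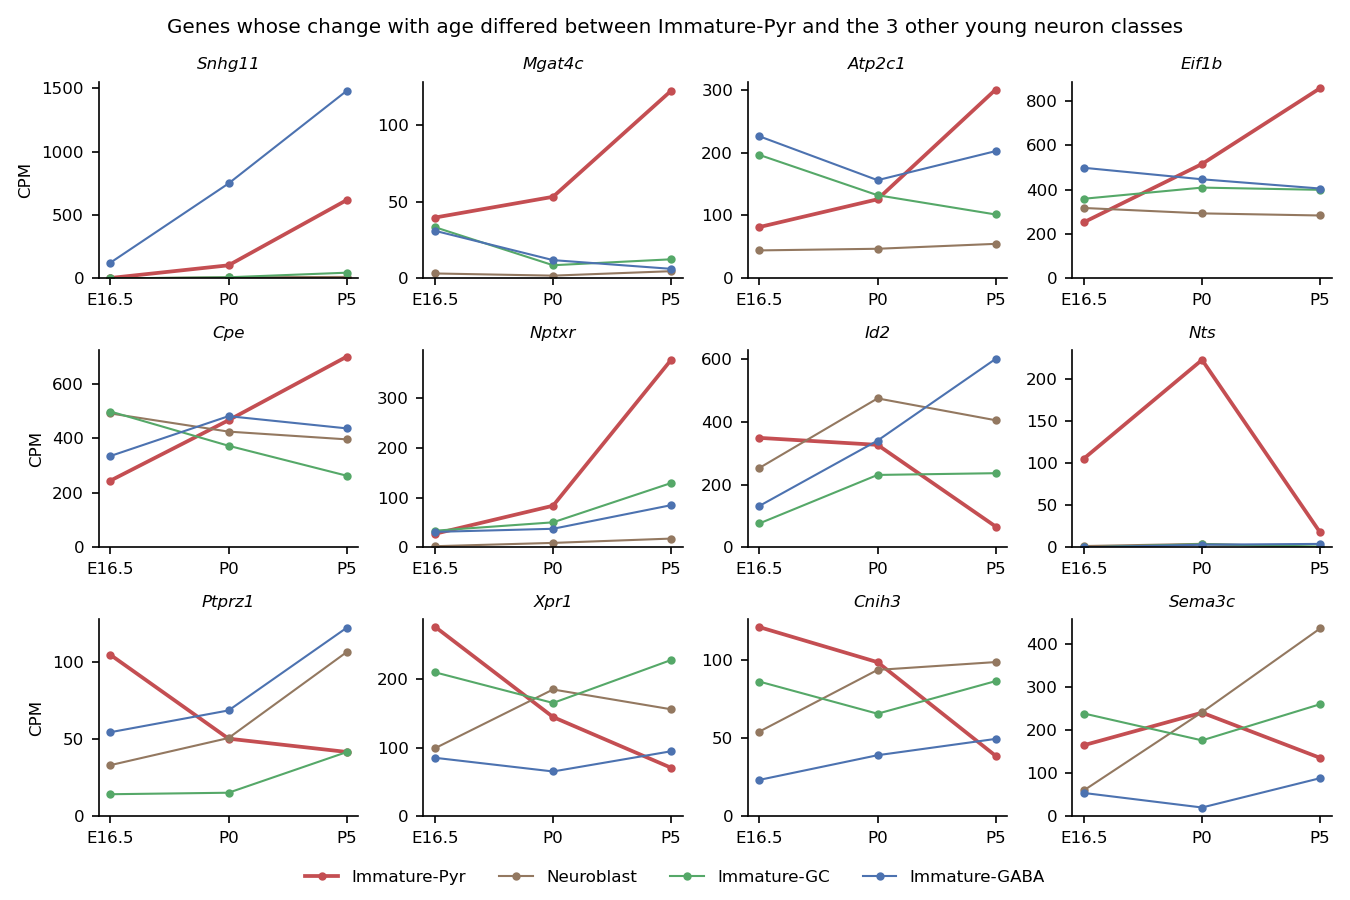
Lines give the level in CPM of the 12 named genes at E16.5, P0 and P5 in Immature-Pyr, Neuroblast, Immature-GC and Immature-GABA, 1 sum of cells per point. The red Immature-Pyr line crosses at least 1 other line for Atp2c1, Eif1b, Cpe, Nptxr, Id2, Ptprz1, Xpr1, Cnih3 and Sema3c, and Id2 falls to 66.6 CPM in Immature-Pyr while it rises to 601 in Immature-GABA.

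Few synaptic genes differed in slope between Immature-Pyr and the other young neurons. Of 27 tested vesicle genes only Syn2 was more positive (difference 0.59 ± 0.16, adjusted p 0.0367), and none of the postsynaptic, glutamate receptor, GABA receptor or channel genes passed. A gene that misses the threshold is not shown to behave alike. The growth and cytoskeleton list held 7 more negative genes of 30, among them Sox4 (difference -0.88 ± 0.13, adjusted p 2.79e-06), Sox11 (-0.60 ± 0.10) and Tubb2b (-0.63 ± 0.11), and 1 more positive, Nnat, an imprinted membrane protein (0.50 ± 0.11, adjusted p 0.00341). Of the identity genes, Bcl11b (-1.16 ± 0.15, adjusted p 2.84e-07), Nfib, Nfix and Mef2c were more negative. Of 51 guidance genes, Robo2 (1.18 ± 0.28, adjusted p 0.0108), Slit2 (1.09 ± 0.24, adjusted p 0.00357), Epha5 and Epha7, receptors for ephrins, were more positive, and Ntm, Opcml, Ptprd and Sema3c more negative. Dab1 was more negative (-0.89 ± 0.16, adjusted p 2.08e-04).

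The cells of 1 age were not alike. To compare cells at equal depth, each was thinned to 1500 UMIs, which left none of the cells out. The genes of this comparison and the next were chosen after their values were seen. Zbtb20 had a UMI in 73.5, 81.1 and 90.8% of Immature-Pyr cells at the 3 ages, and in 27.3, 17.7 and 23.4% of Immature-GABA cells, the reference class. Before thinning the shares were 86.3, 90.2 and 99.1% and 40.9, 40.7 and 61.7%. Nts had a UMI in 3.78, 5.56 and 1.19% of cells and Nr4a2, an orphan nuclear receptor of deep-layer and subicular neurons, in 6.74, 6.93 and 3.56%, against at most 0.511% and 1.36% in Immature-GABA. Before thinning Nts was found in 7.50, 9.84 and 5.19% and Nr4a2 in 17.1, 18.3 and 14.7% of Immature-Pyr cells. At P0, 43.1% of the 130 cells with Nts also had Nr4a2, against 4.80% of the others (Pearson's r of log-transformed counts over 2338 cells 0.47). Cells with either gene lacked a Zbtb20 UMI in 59.3% of cases, and cells with neither in 14.4%. At E16.5 these shares were 67.4% and 22.1%, and at P5, with 30 cells that had either gene, 20% and 8.68% with the same median of 3 Zbtb20 UMIs. The r of Nts and Nr4a2 was 0.13 at E16.5 and 0.16 at P5, where 8 cells had Nts; the difference between ages was not tested.

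At P0 Zbtb20 was found with Igfbpl1 and Sema3c. There, 39.3% of cells with Zbtb20 had a Sema3c UMI and 5.87% of cells without it (r 0.44). For Igfbpl1 these were 73.8% and 38.6% (r 0.48), and at P5 r was 0.38 over 675 cells. At P5 Cck had a UMI in 49.6% of cells, 77.6% before thinning, and in 19.5% of Immature-GABA cells. Among cells with Cck, 17.6% had Bcl11b, against 5.29% of cells without (r 0.43). Pou3f1, a POU factor used as a CA1 gene, was found in 8.96% and 0.294% (r 0.40), and Crym in 66.9% and 50.9% (r 0.43). Cells of 1 library share their depth and free RNA, so these values describe the libraries and carry no p.

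The 51 cells at P23 carried the same label and differed from the perinatal cells in many of its genes. From P5 to P23, 258 of 3880 genes (6.65%) were higher and 203 (5.23%) lower by the ratio of 2 at 50 CPM, with 1 library and no test. The genes below were chosen after their values were seen, and intervals are exact Poisson limits for counting error only. Neurod6 had 1304 CPM (1203 to 1411) and a UMI in 50 of 51 cells, Cd24a, a surface protein of young neurons, 1493 CPM, and Dcx 368 CPM. Mature CA3-Pyr cells of the same library had 558, 6.28 and 37.7 CPM. Cd24a and Dcx, known from young neurons, were thus far above the mature cells.

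Mef2c, a transcription factor of maturing excitatory neurons, had 4292 CPM (4107 to 4484) and a UMI in all 51 cells, where the P5 cells had 48.3 CPM. It was also high in other P23 neurons, at 1868 CPM in CA3-Pyr and 1971 in Immature-GABA. Pou3f2, a POU factor of upper cortical layers, had 302 CPM against 3.56 at P5, and Meis2, a homeobox gene, 1044 against 55.2. Mpped1 had 817 CPM, above its level at any perinatal age. Cux1 and Cux2, homeobox genes of upper cortical layers, had 151 and 108 CPM, against 12.2 and 2.14 at P5. Other P23 neurons held these RNAs too. In CA3-Pyr and in the 24 Immature-GABA cells, Cux1 had 74.3 and 22.7 CPM, Cux2 69.1 and 75.8, and Mpped1 163 and 523. Pou3f2 had 47.1 and 15.2 CPM there, and Meis2 73.3 and 114.

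Other genes of the perinatal cells were lower at P23. Zbtb20 had 279 CPM (233 to 331) against 2639 at P5, and Crym 12.8 against 956. Nrp1 and Nrp2, the semaphorin co-receptors, had 29.8 and 12.8 CPM against 637 and 375. Bcl11b had 10.6 CPM, and Calb2 1 UMI. Of the other genes given as marks of the cluster, Elavl2 had 95.7 CPM (69.8 to 128), below its perinatal levels. Nr3c2 had 2 UMIs, with an interval of 0.515 to 15.4 CPM that holds its E16.5 level of 9.78. Mndal had none, with an upper limit of 7.85 CPM, above its levels at E16.5 and P0 and below that at P5. None of the P23 barcodes of the cluster occurred in a P5 library. Oligodendrocyte genes summed to 236 CPM at P23 against 52.4 at P5, and the part of such RNA was not tested.

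**Figure D5:**
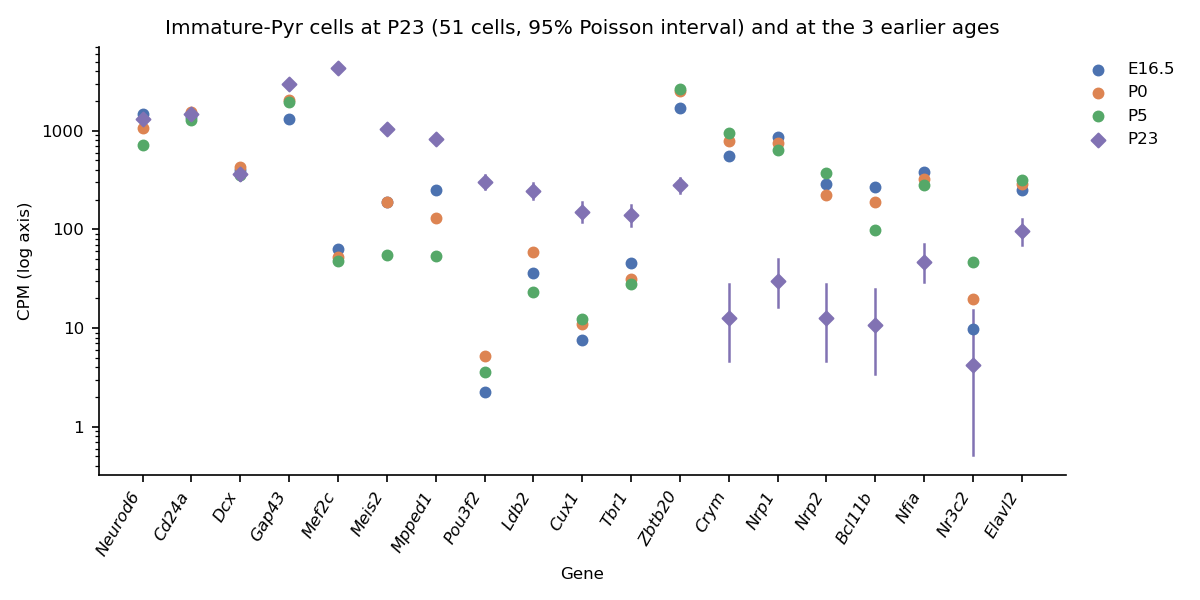
Points give the level in CPM on a log axis of 19 genes in Immature-Pyr cells at E16.5, P0, P5 and P23, with exact 95% Poisson intervals at P23. Neurod6, Cd24a and Dcx lie within their perinatal range and Gap43 above it, the 7 genes from Mef2c to Tbr1 lie above theirs and the 8 from Zbtb20 to Elavl2 below, as in Mef2c, with 4292 CPM at P23 and 48.3 at P5. The interval of Nr3c2, from 2 UMIs, holds its E16.5 level of 9.78 CPM.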

How the data were processed

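UMI counts per gene and cell came from the authors' deposited table, made with the 10X Chromium kit version 2 per the labels' protocols and with Cell Ranger and mm10 per the submitters' processing notes. Cell filters and doublet removal are not given in the sources used here. No doublet caller was run. Ages, strains, sexes and clusters were taken from the deposited table of cells, and libraries from the cell names. The members and gene lists were chosen with earlier results of these data known.

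Counts were summed over cells of a cluster by age. Age trends over 3 sums, and a fit of 12 sums (4 classes by 3 ages) with age as block, used edgeR 4.0.16 (TMM, filterByExpr, quasi-likelihood test, two-sided, Benjamini-Hochberg) in R 4.3.3. The classes of an age come from the same libraries, which is the pairing behind the block. DESeq2 1.42.0 was an alternative. The residual degrees of freedom were 1 and 3, and the median prior degrees of freedom 26.3 and 59.7. Because the libraries of an age may share pooled animals, an age counts as 1 sample, and age, batch and sex cannot be told apart. Both fits were run on simulated counts with straight slopes and no differences between animals, libraries or sexes. That simulation cannot show how the fits behave where such differences or curved courses are present. Depth ranged from 470136 to 17910780 UMIs per Immature-Pyr sum at E16.5, P0, P5 and P23, so 3 counts are worth 6.38 to 0.167 CPM there. At E16.5 the Immature-GABA sum held 128461 UMIs and the Immature-GC sum 209005, so 3 counts are worth more CPM in these sums.

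Named genes were the 12 steepest rising and falling at a mean of 50 CPM or more, called and in order in all 5 libraries, the 6 most different from the other classes in each direction and the 10 with the largest smallest ratio to other clusters. Some of these genes are not reported here. Python 3.11.15 with numpy 2.4.6 and scipy 1.17.1 made the descriptions.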

Additional observations from a re-analysis of the deposited data

Results flagged for a closer look

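The slopes of 12 genes over E16.5, P0 and P5 differed between Immature-Pyr and the mean of Neuroblast, Immature-GC and Immature-GABA in a test of the difference itself, in edgeR's quasi-likelihood fit with Benjamini-Hochberg adjustment. The genes that fell more, or rose less, in Immature-Pyr were Id2 (-2.04), Nts (-1.95), Ptprz1 (-1.48), Xpr1 (-1.28), Cnih3 (-1.27) and Sema3c (-1.27), in log2 change per age step. Those that rose more were Snhg11 (1.28), Mgat4c (1.23), Atp2c1 (1.02), Eif1b (0.88), Cpe (0.86) and Nptxr (0.82). Id2, Ptprz1, Xpr1, Cnih3, Atp2c1, Eif1b and Cpe passed in every alternative setting run for this comparison. Snhg11, Mgat4c, Nptxr, Nts and Sema3c failed in some of them.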

How the results depend on the processing

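The 24 genes named for the steepest slopes kept their direction in every alternative that tested them, and all passed the threshold, except Id2 with DESeq2. Xist was not tested in the cells without an Xist UMI. The counts of genes that rose and fell, 1539 and 981, were 385 and 221 among genes at a mean of 50 CPM or more, 1001 and 468 with DESeq2, 913 and 519 with cells thinned to 1500 UMIs, and 2465 and 2191 with 1 sum per library, where libraries of an age may share animals. Without cells of more than 2.5 times the median UMIs 611 fell. Among alternatives chosen after seeing the data, 597 rose and 299 fell in cells with a Y-linked and no Xist UMI, and 795 and 487 in thinned cells without a UMI of the subiculum list. Leaving out 1 library gave 1256 to 1415 rising and 658 to 829 falling genes. Fewer cells, genes or UMIs entered most of these fits, and the cause was not tested. Without 1 age no residual degree of freedom remains, so no call could be made.

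For the comparison with other young neurons (53 more positive, 118 more negative) the counts were 7 and 9 with no replicate block, 9 and 27 at 50 CPM or more, 11 and 25 with DESeq2, 14 and 51 with thinned cells, 188 and 276 against Neuroblast alone, 101 and 328 without Neuroblast and 116 and 188 without Immature-GABA, and 194 were more negative with no filter. Leaving out 1 library gave 36 to 68 and 88 to 137. The block reflects libraries that the classes of an age share, and without it Snhg11, Mgat4c, Nptxr, Nts and Sema3c did not pass. Among the named genes Snhg11 and Nptxr also failed at 50 CPM or more, with DESeq2 and with thinned cells, Sema3c in the first pair of these, Nts with DESeq2 and thinned cells, and Mgat4c with thinned cells. Age in days lost Nts, Neuroblast alone Mgat4c and Nptxr, leaving out Immature-GC Nptxr and Nts, and leaving out Immature-GABA Snhg11, Mgat4c, Nptxr and Nts. Without P0 library 2 Snhg11, Nptxr and Nts failed, without P5 library 1 Nptxr, and without P5 library 2 Nts. Against Neuroblast alone Nts turned to 0.15.

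Of neuronal clusters the shares were 79.3%, 59.1%, 23.1% and 3.14% at E16.5, P0, P5 and P23, and 1 library alone gave 47.4% to 50.4% at P0. At ratios of 1.5 and 4, and minimums of 10 and 200 CPM, 383, 15, 378 and 18 genes were higher at P0 than at E16.5 and 147, 5, 116 and 13 lower. From P0 to P5 these were 726, 37, 850 and 54 higher and 453, 8, 237 and 34 lower. At P23 the 51 cells give 3 UMIs a worth of 6.38 CPM.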
